A study of Mus musculus with 4 samples.

Results

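Mature neutrophils of the brain and of the dura mater, the outer layer of the meninges, were selected from single-cell RNA sequencing of sorted CD45+ cells. CD45 marks cells of the hematopoietic lineage, among them the resident microglia of the brain. A cell was a member when over 500 but under 6000 genes were detected in it, when mitochondrial genes held no more than 7% of its unique molecular identifiers (UMIs, each standing for 1 captured RNA molecule), when S100a8 and S100a9 were each at 3 or more on the natural log scale of the deposited values, and when at least 3 of the 6 genes Cxcr2, Retnlg, Asprv1, Stfa2l1, Il1f9 and Csf3r were detected. Ngp, a granule gene of immature neutrophils, had to be below 2, C1qa below 1.5, and Siglecf, Cd3e and Cd79a at 0. The rule gave 733 members among 14953 cells inside the gene and mitochondrial window and 18969 deposited cells.

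The mice were adult C57BL/6J mice, given as 8 weeks old, and the study's methods describe males. The INJ groups were taken 3 days after photothrombotic injury (PTI), in which a circulating photosensitive dye is lit through the skull so that vessels clot. The study used it to damage vessels of the dura, the pia and the brain at once, so the dura was itself injured. The CT groups are the controls, which the labels do not describe further and which the study's legends match to sham-operated mice. Each of the 4 groups (CT brain, INJ brain, CT dura and INJ dura) is 1 library of cells from tissue digested with enzymes at 37 °C, the number of mice in it is not given in the sources used here, and the labels of the brain libraries write the sort as both CD45pos and "CD45-+". A single library per group gives no measure of how mice vary, so differences are described and not tested. Intervals are 95% intervals for counting error only.

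Neutrophils are short-lived granulocytes that leave the bone marrow, circulate and enter injured tissue within hours, guided by chemokines that bind Cxcr2. Their granules are filled in order during development, first with primary granule enzymes such as Mpo and Elane, then with secondary granule proteins such as Ltf, Camp and Lcn2, and last with gelatinase granule proteins such as Mmp9, so that a mature cell has mostly stopped making RNA for the early proteins. In tissue they make interleukin-1 beta, Tnf and chemokines after signals through Toll-like receptors, interleukin-1 receptors and the transcription factor NF-kB.

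Csf3r, the receptor for the growth factor of granulocytes, was detected in 98.8 to 100% of members of each library, Cxcr2 in 96.2 to 98.8%, Retnlg in 90.6 to 99.0%, Il1f9 in 51.9 to 71.6%, Asprv1 in 46.9 to 64.7% and Stfa2l1 in 37.2 to 50%. These genes chose the members and are given as a description. Ngp was at 0 UMIs in 213 of 258 members in CT brain, 115 of 160 in INJ brain, 104 of 213 in CT dura and 48 of 102 in INJ dura. Between 1.5 and 2, just inside the Ngp limit, lay 10, 14, 44 and 20 members in that order, and between 2 and 2.5, just outside it, 13, 10, 16 and 9 cells that passed everything else. Exactly 3 of the 6 markers were detected in 47, 29, 26 and 6 members, while 9, 15, 3 and 8 otherwise passing cells had 2. The lower of S100a8 and S100a9 was between 3 and 3.5 in 1, 9, 1 and 1 members and between 2.5 and 3 in 3, 1, 3 and 0 cells outside. The primary granule genes Mpo, Elane, Prtn3, Ctsg, Ms4a3 and Fcnb, a list the rule did not use, summed to 0 UMIs in 250 of 258, 138 of 160, 192 of 213 and 95 of 102 members.

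In all 3821 cells of CT brain, 4684 of INJ brain, 3725 of CT dura and 2723 of INJ dura passed the window, and the libraries held 49003977 to 115154317 UMIs. Members carried few UMIs, with medians per cell of 3804.5, 4623, 4554 and 6704.5 and medians of 1289.5, 1296.5, 1392 and 1605.5 detected genes, where the median over all cells in the window was 8312, 14425.5, 9066 and 14059 UMIs. Summed over members the 4 libraries gave 1443246, 1214052, 1161332 and 810240 UMIs, of which S100a8 and S100a9 together took 11.6, 10.9, 16.2 and 20.6 percent. Every pair of libraries shared 3 to 11 cell barcodes, and no shared barcode was a member in both.

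Some members also held RNA of other immune cells. Over 82 marker genes of 13 other lineages, 14 members of CT brain, 26 of INJ brain, 12 of CT dura and 5 of INJ dura had 1% or more of their UMIs on those markers (5.43%, 16.2%, 5.63% and 4.902% of members). These mixed cells were deep, with medians of 13171.5, 19676.5, 15510.5 and 15271 UMIs beside 3705.5, 4038.5, 4505 and 6582 in the other members, and they supplied 13.7%, 45.6%, 14.8% and 13.3% of all member UMIs. INJ brain stood apart, because 26 cells supplied so much of its summed RNA. Markers of border macrophages summed to 1800.1, 14428.5, 1241 and 1152 UMIs for each 1000000 UMIs (CPM) over all members in the order CT brain, INJ brain, CT dura and INJ dura, and to 1043, 1639.8, 791 and 720.4 without the mixed cells. Dendritic cell markers, most of them of MHC class II, summed to 1909.6, 6099, 3168 and 1056 CPM over all members and to 324, 277, 364 and 292 without mixed cells. Mast cell markers summed to 5.54, 2.47, 1424 and 1965 and to 6.42, 4.54, 71.8 and 108. These markers define the mixed cells, so the falls in their sums follow in part from that definition. What made these cells mixed was not tested. Ratios below are over all members unless stated, and those without mixed cells, which leaves 244, 134, 201 and 97 members, are added where they moved a gene across 2-fold or by a large step and for the genes the results turn on.

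The remaining lists, without mixed cells and in the same order, gave 1168, 1759, 823 and 933 CPM for infiltrating macrophages, 1112, 918, 666 and 844 for monocytes, 125, 132, 48.5 and 61.2 for microglia, 222, 81.8, 219 and 66.9 for B cells, 49.8, 3.03, 22.2 and 11.4 for T cells, 116, 6.06, 69.7 and 74.03 for natural killer and innate lymphoid cells and 165, 159, 149 and 117 for neural and vascular cells. Some genes stand on several lists, so the sums of different lists are not fully separate and cannot be added. Eosinophil, basophil and erythroid markers were near 0, and Prg2 and Epx, which define eosinophils, were at 0 in every library.

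**Figure D1:**
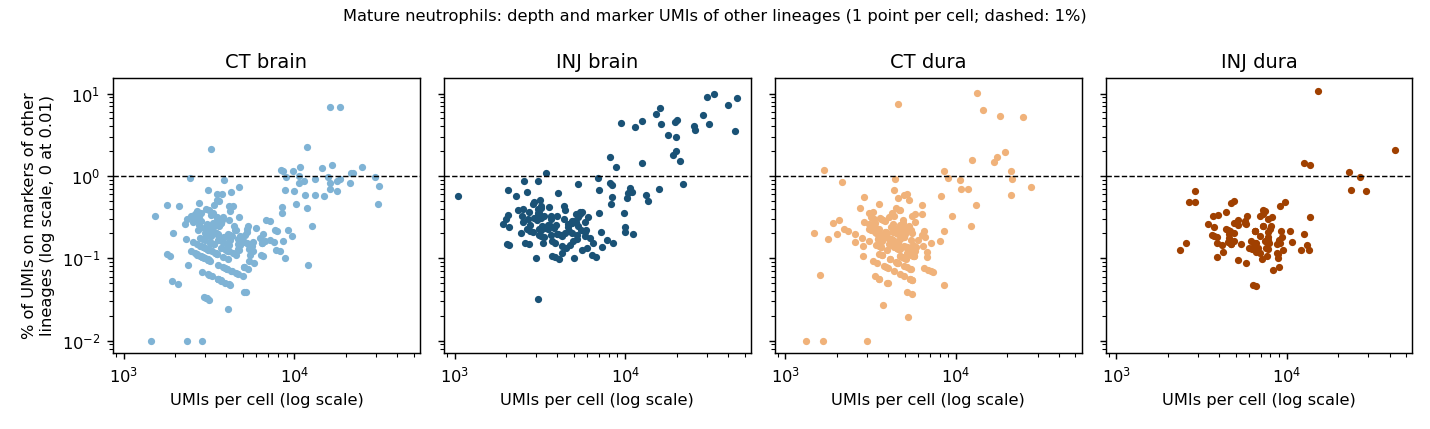
Each point is 1 mature neutrophil, with its total UMIs on the x axis (log scale) and the percent of them on marker genes of other lineages on the y axis, 1 panel per library. The line marks 1%, and the cells above it, 14 in CT brain, 12 in CT dura, 26 in INJ brain and 5 in INJ dura, were mostly the deep ones.

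Mature neutrophils made up 6.75% of cells in the window in CT brain (95% Clopper-Pearson interval 5.98 to 7.59%, 258 of 3821) and 3.42% in INJ brain (2.91 to 3.98%, 160 of 4684). In the dura they made up 5.72% in CT dura (4.99 to 6.51%, 213 of 3725) and 3.75% in INJ dura (3.06 to 4.53%, 102 of 2723). The share was lower after PTI in both tissues, at 0.506 times the control share in brain and 0.655 times in dura, with intervals that did not overlap. It is a share of sorted CD45+ cells, so fewer mature neutrophils and more of the other cells cannot be told apart. Nor is the spread between mice known. Among granulocytes with the same S100a8, S100a9 and lineage limits, cells with Ngp at 2 or more (the less mature Ngp-high cells) numbered 195, 190, 522 and 291. The number of mature cells for each Ngp-high cell was 1.32 in CT brain and 0.842 in INJ brain, and 0.408 in CT dura and 0.351 in INJ dura. Brain thus held more mature cells per Ngp-high cell than dura in both conditions.

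Cells that met every limit but had Siglecf above 0, a lectin of eosinophils that some tissue neutrophils also carry, numbered 18, 30, 8 and 16. They were 6.52% (3.91 to 10.1%) of themselves plus the members in CT brain, 15.8% (10.9 to 21.8%) in INJ brain, 3.62% (1.58 to 7.01%) in CT dura and 13.6% (7.95 to 21.1%) in INJ dura. The share was higher after PTI in both tissues, with intervals that did not overlap in either tissue. The eosinophil list held 0 UMIs in all of these cells, and 0 to 0.556% of T and B cells of the libraries had a Siglecf UMI. Most of these cells had 1 Siglecf UMI, which was the median in each library. Such a call depends on depth, and the share was not taken at equal depth. Median UMIs in CT brain, INJ brain, CT dura and INJ dura were 4573.5, 3510.5, 4729.5 and 5216 in the Siglecf-positive cells. In the members they were 3804.5, 4623, 4554 and 6704.5.

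**Figure D2:**
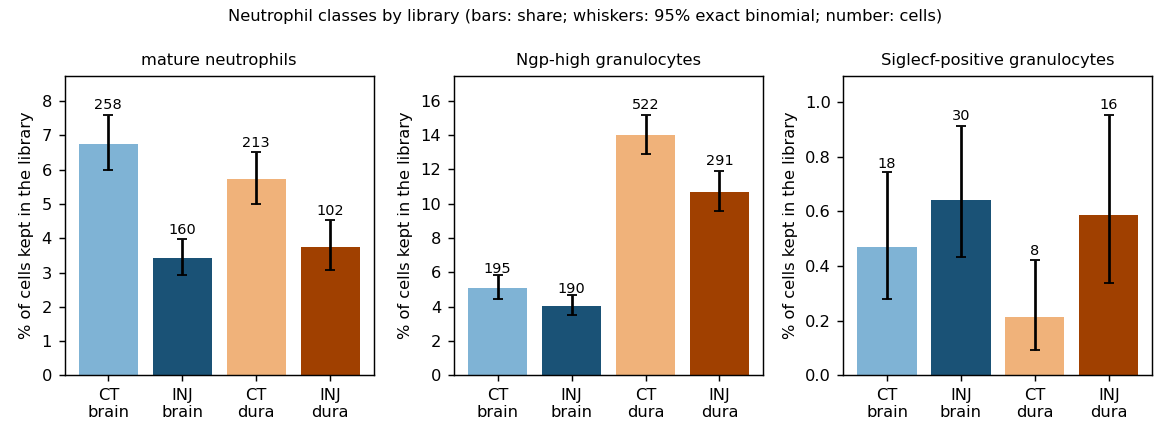
Percent of cells in the gene and mitochondrial window (y axis) that were mature neutrophils, Ngp-high or Siglecf-positive granulocytes in each of the 4 libraries, with 95% Clopper-Pearson intervals as bars. Mature neutrophils were at 6.75% in CT brain and 3.42% in INJ brain, and at 5.72% in CT dura and 3.75% in INJ dura.

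The first question was which genes differed after PTI in mature neutrophils. In both tissues Wfdc17, Ifitm1, Lrg1, Lcn2 and Ly6g were 2-fold or more higher after PTI, and Ptgs2, the inducible cyclooxygenase, was 2-fold lower. The cytokine genes Tnf, Cxcl2 and Cxcl3 were higher in brain, while Ccl3 and Ccl4 were lower in dura. A gene was counted as higher or lower when its CPM, over the summed UMIs of the members of a library, was 2-fold or more apart and it had at least 100 UMIs in both groups together. Of 3158 genes with enough UMIs in brain, 150 (4.75%) were higher and 111 (3.51%) lower in INJ brain than in CT brain, and without mixed cells 36 (1.55%) and 73 (3.15%) of 2318. In dura 30 (1.28%) of 2349 genes were higher and 72 (3.07%) lower in INJ than in CT, and without mixed cells 32 (1.58%) and 59 (2.92%) of 2023. The median log2 ratio of all these genes was -0.16 in brain and -0.17 in dura, and centred on it the counts became 193 higher and 65 lower in brain and 47 and 40 in dura. With S100a8 and S100a9 left out of the total, the dura counts were 34 and 58.

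Of 2296 genes measured in both tissues, 68 were higher in brain and 28 in dura, and 9 of them were higher in both (13.2% of the brain genes and 32.1% of the dura genes). These were Wfdc17, Ifitm1, Lrg1, Lcn2, Ly6g, Tspo, Steap4, Upp1 and Fabp5, and without mixed cells all of them again, with Mrgpra2b and Sri. The tissues came from separate libraries with their own controls. Whether brain and dura came from the same mice is not given in the sources used here. A difference between INJ and CT animals or their handling that both tissues share cannot be told apart from the injury.

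Wfdc17, a small secreted protein with a WAP domain (chr11:83703991-83706268, plus strand, GRCm38), measured 447 in CT brain, 2581 in INJ brain, 256 in CT dura and 2581 in INJ dura, in CPM, the unit of all levels below. Both INJ libraries lay far above both CT libraries. The log2 ratio of INJ over CT was 2.53 (2.41 to 2.65) in brain and 3.34 (3.16 to 3.52) in dura, and 3.04 and 4.04 without mixed cells. Each cell was thinned to 1000 UMIs to remove the difference in depth. Of members without mixed cells, 21.02%, 68.5%, 10.98% and 67.9% then had a Wfdc17 UMI. T and B cells thinned alike, given as a measure of free RNA, had one in 2.75 to 7.11%. They were picked by Cd3e and Cd3d or by Cd79a and Cd79b, and had to lack Csf3r UMIs. That limit removed lymphocytes holding free RNA of this neutrophil gene. Their shares, here and below, can thus understate free neutrophil RNA. Unthinned, the share was 41.5%, 85.6%, 27.2% and 87.3% of all members. After PTI more cells of both tissues held the RNA, and CT and INJ shares of a tissue lay far apart.

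Ifitm1, a membrane protein induced by interferons (chr7:140967221-140969825, plus strand), measured 697 in CT brain, 2426 in INJ brain, 355 in CT dura and 2818 in INJ dura. The log2 ratio was 1.80 (1.70 to 1.90) in brain and 2.99 (2.84 to 3.14) in dura, and 2.23 and 3.03 without mixed cells. It was found in 36.1%, 70.1%, 22.8% and 67.7% of thinned cells and 60.1%, 87.5%, 45.1% and 86.3% of unthinned ones, with 0.281 to 1.93% in thinned T and B cells. Ifitm1 moved apart from the rest of its list. Of 9 interferon-stimulated genes with enough UMIs in brain and 8 in dura, of 16 listed, Ifitm1 was the only one 2-fold higher, and the medians were 0.29 and 0.42. Isg15, an interferon-induced ubiquitin-like protein, had ratios of 0.065 (-0.11 to 0.24) and 0.31 (0.075 to 0.55), the first being -0.22 without mixed cells. Ifitm6, a relative of Ifitm1 outside that list, had ratios of 0.42 (0.24 to 0.59) in brain and 1.30 (1.11 to 1.48) in dura.

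Lrg1, a secreted leucine-rich glycoprotein of neutrophil granules (chr17:56119678-56122001, minus strand), measured 329.8 in CT brain, 991 in INJ brain, 239 in CT dura and 1232 in INJ dura. Its log2 ratio was 1.59 (1.43 to 1.74) in brain and 2.37 (2.18 to 2.57) in dura, and 2.002 and 2.38 without mixed cells. Thinned cells held it in 27.1%, 64.1%, 19.4% and 69.1% and unthinned cells in 51.9%, 88.1%, 43.7% and 96.1%, while thinned T and B cells held it in 0.0274 to 0.499%. Lcn2, which binds the iron carriers of bacteria (chr2:32384633-32388252, minus strand), measured 1064 in CT brain, 2488 in INJ brain, 1533 in CT dura and 3490.3 in INJ dura. Its log2 ratio was 1.22 (1.14 to 1.31) in brain and 1.19 (1.10 to 1.27) in dura, and 1.66 and 1.04 without mixed cells. In dura the Lcn2 ratio was under 2-fold in cells thinned to 1000 UMIs, at 0.88. Ly6g, the surface antigen by which mouse neutrophils are recognised (chr15:75155240-75159126, plus strand), measured 93.5 in CT brain, 277 in INJ brain, 169 in CT dura and 455 in INJ dura, with log2 ratios of 1.56 (1.27 to 1.86) and 1.43 (1.18 to 1.69). For Lrg1, Lcn2 and Ly6g each INJ library was also above both CT libraries.

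The other genes of the set had lower levels. Steap4, Upp1, Fabp5 and Sri, and Fkbp5 and Cyth1 below, are outside the rule for named genes and were chosen after their values were seen. Fabp5 met the UMI and fold limits of that rule. It was thus left out by the limit on T and B cells or as a marker of another lineage. How much of its RNA T and B cells held is not given here. Tspo, a protein of the outer mitochondrial membrane, measured 334 in CT brain, 889.6 in INJ brain, 290.2 in CT dura and 971 in INJ dura, with log2 ratios of 1.41 (1.26 to 1.57) and 1.74 (1.56 to 1.93), and thinned T and B cells also held it, in 26.2%, 33.4%, 23.3% and 29.98%. Steap4, a metalloreductase of iron and copper (chr5:7960457-7982213, plus strand), measured 25.6 in CT brain, 109.5 in INJ brain, 8.61 in CT dura and 160.4 in INJ dura, with ratios of 2.10 (1.56 to 2.66) and 4.22 (3.29 to 5.31), and 2.78 and 4.93 without mixed cells. Upp1, which splits uridine, measured 18.01 in CT brain, 108 in INJ brain, 13.8 in CT dura and 112 in INJ dura, with ratios of 2.58 (1.97 to 3.25) and 3.03 (2.25 to 3.89). Fabp5, a fatty acid carrier, measured 80.4 in CT brain, 526 in INJ brain, 69.7 in CT dura and 173 in INJ dura, with a ratio in brain of 2.71 (2.42 to 3.01) that was 1.67 without mixed cells, and in dura of 1.31 (0.90 to 1.72). For Steap4 and Upp1 both INJ libraries lay above both CT libraries. Prok2, a secreted ligand of prokineticin receptors that neutrophils make, had too few UMIs in brain to be counted. It measured 9.01 in CT brain, 65.9 in INJ brain, 5.17 in CT dura and 154 in INJ dura, with ratios of 2.87 (2.02 to 3.84) and 4.90 (3.74 to 6.37), and 68 to 100% of its UMIs in each library were in 10 cells. Mrgpra2b, a receptor for antimicrobial peptides, measured 65.1 in CT brain, 127 in INJ brain, 95.6 in CT dura and 315 in INJ dura, with ratios of 0.96 (0.58 to 1.35) and 1.72 (1.39 to 2.05), the first being 1.30 without mixed cells.

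**Figure D3:**
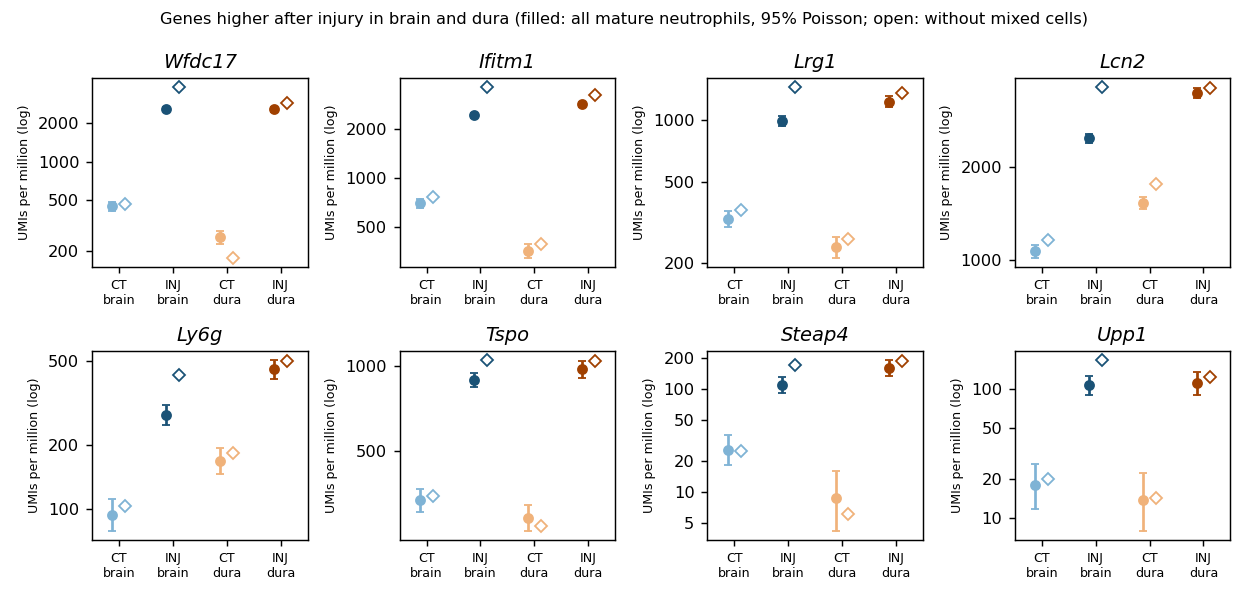
CPM (y axis, log scale) of genes that were 2-fold or more apart between INJ and CT in both tissues, in each library, over all members (filled) and without mixed cells (open), with 95% Poisson intervals on the filled points. Wfdc17 was at 447 in CT brain, 256 in CT dura and 2581 in both INJ libraries.

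Sequences were read at the promoters of these genes because Lcn2 and Steap4 are textbook targets of inflammatory transcription factors. The 250 bases before the start of the RefSeq gene (GRCm38.p6) were searched on both strands for the STAT motif TTCNNNGAA, the C/EBP motif TTGCNNAA and the NF-kB consensus of 10 letters. Over 32851 promoter entries these were found in 7.02%, 9.56% and 7.25%. Of the 9 genes higher in both tissues, 7 have an entry. Wfdc17, Ifitm1, Lrg1 and Upp1 held none of the motifs, Lcn2 held C/EBP, 1 of 2 Ly6g entries held C/EBP, and Steap4 held all of them. The windows of Lcn2 (chr2:32387740-32387989 on the minus strand) and Steap4 (chr5:7960222-7960471 on the plus strand) are printed 5′ to 3′ along the gene, with the matches in capitals.

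Lcn2: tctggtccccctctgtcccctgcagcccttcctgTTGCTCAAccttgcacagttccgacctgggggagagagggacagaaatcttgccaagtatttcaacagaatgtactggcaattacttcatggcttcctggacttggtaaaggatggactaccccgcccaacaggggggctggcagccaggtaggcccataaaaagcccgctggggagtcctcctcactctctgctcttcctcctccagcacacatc

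Steap4: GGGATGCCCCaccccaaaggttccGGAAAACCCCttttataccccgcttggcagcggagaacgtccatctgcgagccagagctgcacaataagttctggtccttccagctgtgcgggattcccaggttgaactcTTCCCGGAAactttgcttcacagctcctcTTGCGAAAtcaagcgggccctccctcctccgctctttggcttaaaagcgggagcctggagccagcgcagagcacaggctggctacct

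Distances are to the RefSeq start, while the gene positions given above are from GENCODE. By those positions the Lcn2 window lies inside the gene, and the last bases of the Steap4 window overlap its gene. In Lcn2 the capitals are the C/EBP match, 216 to 209 bases before the start. In Steap4 they are NF-kB matches at 250 to 241 and 226 to 217, the STAT match at 116 to 108 and the C/EBP match at 87 to 80 bases before the start. A match is a run of letters, and binding was not measured.

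Among lower genes, 90 were lower in brain and 66 in dura, and 19 in both (21.1% and 28.8%), while without mixed cells 14 of 61 and 47 were lower in both. The 19 include Ptgs2, Acsl1, Fkbp5, Trpm2, Cyth1 and Vps37b. Ptgs2, the inducible cyclooxygenase that starts prostaglandin synthesis, measured 691 in CT brain, 325 in INJ brain, 997 in CT dura and 380.1 in INJ dura. Its log2 ratio was -1.09 (-1.26 to -0.92) in brain and -1.39 (-1.58 to -1.21) in dura, and -1.14 and -1.22 without mixed cells. Both CT libraries were above both INJ libraries, also in thinned cells, of which 45.9%, 23.5%, 48.2% and 29.9% had a UMI, against 73.3%, 51.2%, 74.2% and 60.8% of unthinned members and 1.18 to 3.81% of thinned T and B cells.

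Thbs1, thrombospondin 1, a matrix glycoprotein that activates TGF-beta, measured 1539 in CT brain, 889.6 in INJ brain, 2207 in CT dura and 805 in INJ dura over all members and 1686, 357, 2464 and 756 without mixed cells. The log2 ratio in brain was -0.79 (-0.90 to -0.69) over all members and -2.24 (-2.44 to -2.04) without mixed cells, which held most of the Thbs1 of INJ brain. In dura it was -1.46 (-1.58 to -1.33) and -1.70. Thinned cells had a UMI in 51.4%, 18.3%, 64.6% and 26.1%, and unthinned members in 67.4%, 41.9%, 76.5% and 44.1%. Nr4a1, an orphan nuclear receptor induced within minutes of a signal, measured 1249 in CT brain, 586 in INJ brain, 1158 in CT dura and 621 in INJ dura, with ratios of -1.09 (-1.22 to -0.97) in brain and -0.90 (-1.05 to -0.75) in dura, and -1.20 and -1.17 without mixed cells.

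Trpm2, a calcium channel opened by oxidants, measured 204 in CT brain, 82.4 in INJ brain, 201 in CT dura and 99.97 in INJ dura, with ratios of -1.31 (-1.65 to -0.97) and -1.01 (-1.39 to -0.64), the first being -0.88 without mixed cells. Acsl1, which activates long fatty acids, measured 122 in CT brain, 48.6 in INJ brain, 122 in CT dura and 50.6 in INJ dura, with ratios of -1.33 (-1.78 to -0.89) and -1.27 (-1.81 to -0.76). Fkbp5, a cochaperone that glucocorticoids induce, measured 103 in CT brain, 28.01 in INJ brain, 90.4 in CT dura and 40.7 in INJ dura, with ratios of -1.88 (-2.46 to -1.34) and -1.15 (-1.76 to -0.57), and in dura it was under 2-fold in thinned cells. Vps37b, a subunit of the ESCRT-I sorting complex, measured 197 in CT brain, 72.5 in INJ brain, 1067 in CT dura and 470.2 in INJ dura, with ratios of -1.44 (-1.80 to -1.09) and -1.18 (-1.35 to -1.02). For Vps37b the tissues differed more than the conditions did, since both dura libraries lay above both brain libraries. T and B cells at the same thinned depth held Vps37b in 27.8%, 33.2%, 20.6% and 36.1%.

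Immediate early genes, which neutrophils switch on during tissue handling as well as in life, had medians under those of all genes in both tissues (-0.33 and -0.42, and -0.52 and -0.52 without mixed cells). Of 12 listed and measured in each tissue, 1 was 2-fold lower in brain and 0 in dura, and without mixed cells 3 and 1. Over all genes 3.51% were lower in brain and 3.07% in dura, and 3.15% and 2.92% without mixed cells. Fos measured 2133 in CT brain, 1455 in INJ brain, 2317 in CT dura and 1624 in INJ dura, with ratios of -1.16 and -0.70 without mixed cells, and Fosb -1.43 and -0.24. Dusp1, a phosphatase that ends MAP kinase signals, measured 2461 in CT brain, 1553 in INJ brain, 1959 in CT dura and 1398 in INJ dura, with ratios of -0.66 (-0.75 to -0.58) and -0.49 (-0.59 to -0.38).

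**Figure D4:**
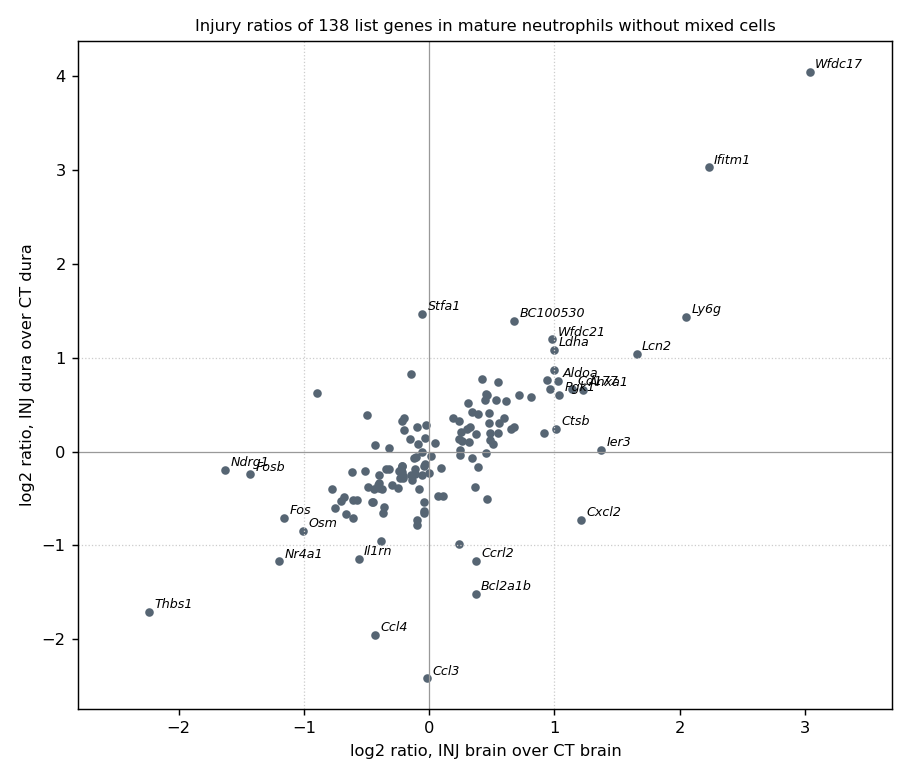
Log2 ratio of INJ over CT in brain (x axis) and in dura (y axis) for 138 listed genes measured in both tissues, without mixed cells, with lines at 2-fold. Wfdc17, Ifitm1, Ly6g and Lcn2 were 2-fold higher in both tissues and Thbs1 and Nr4a1 2-fold lower in both, while 11 genes passed 2-fold in brain alone and 9 in dura alone.

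Granule genes were next. Of 12 secondary granule genes, 8 could be measured in brain and 9 in dura, with medians of 0.018 and 0.47, and 0.50 and 0.41 without mixed cells. Over all members Lcn2 was 2-fold higher and Chil3 lower in brain, and Lcn2 and Chil3 higher in dura. Without mixed cells, Lcn2, Cd177 and Anxa1 were 2-fold higher in brain and Lcn2 in dura, and 0 were lower. Among all genes 1.55% were then higher in brain and 1.58% in dura. Cd177, a surface partner of proteinase 3, measured 61.7 in CT brain, 94.7 in INJ brain, 158 in CT dura and 264 in INJ dura, with a brain ratio of 0.62 (0.21 to 1.04) that was 1.14 without mixed cells and a dura ratio of 0.75 (0.45 to 1.04). Anxa1, the anti-inflammatory annexin, measured 349 in CT brain, 632 in INJ brain, 463 in CT dura and 742 in INJ dura, with ratios of 0.86 (0.69 to 1.02) and 0.68 (0.51 to 0.85), the first being 1.23 without mixed cells. Camp, the cathelicidin precursor and a gene of less mature cells, was low, at 27.7 in CT brain, 31.3 in INJ brain, 106 in CT dura and 65.4 in INJ dura, and thinned T and B cells held it in 1.18%, 2.35%, 8.79% and 5.499%, beside 2.91%, 3.91%, 10.1% and 6.98% of thinned members and 12.8%, 18.1%, 39.4% and 33.3% of unthinned ones. The 6 primary granule genes had too few UMIs in every comparison.

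The list of late granule and extracellular trap genes also held the surface antigen Ly6g and the genes Wfdc17 and Wfdc21. Out of 7 measured of 8, Ly6g and Wfdc17 were 2-fold higher in both tissues and Wfdc21 in dura. Among all genes 4.75% were higher in brain and 1.28% in dura. The medians of the list were -0.079 in brain and 0.29 in dura, and 0.39 and 0.26 without mixed cells. Mmp9, the gelatinase itself, measured 1235 in CT brain, 1169 in INJ brain, 2061 in CT dura and 1946 in INJ dura, with ratios of -0.079 (-0.18 to 0.022) and -0.083 (-0.18 to 0.0094), the first being 0.39 without mixed cells. Slpi, an inhibitor of neutrophil elastase, measured 2382 in CT brain, 2106 in INJ brain, 2372 in CT dura and 2909 in INJ dura, with ratios of -0.18 (-0.25 to -0.10) and 0.29 (0.21 to 0.37), the first being 0.33 without mixed cells. Wfdc21, a relative of Slpi and Wfdc17, measured 902 in CT brain, 1337 in INJ brain, 1322 in CT dura and 3111 in INJ dura, with ratios of 0.57 (0.46 to 0.67) and 1.24 (1.14 to 1.33). Summed over the list, Wfdc17 and Wfdc21 included, each cell thinned to 1000 UMIs held a median of 6.96, 13.02, 8.76 and 12.3 UMIs without mixed cells. The range from the 10th to the 90th percentile was 2.97 to 12.1 in CT brain and 3.03 to 22.1 in INJ brain. INJ brain was the most spread of the 4 libraries on that list.

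The stefins, small inhibitors of cysteine proteases that lie in a cluster of near-identical copies, had most of their UMIs in few cells. For Stfa1, Stfa2 and BC100530, 10 cells held 81.6 to 99.74%, 96.4 to 100% and 98.3 to 100% of the UMIs of a library. Stfa1 measured 155 in CT brain, 98.8 in INJ brain, 143 in CT dura and 480.1 in INJ dura, Stfa2 9.01, 14.003, 30.1 and 137 and BC100530 45.7, 54.4, 84.4 and 288 in the same order, so all 3 were highest in INJ dura. Their log2 ratios in dura were 1.75 (1.48 to 2.02), 2.18 (1.62 to 2.78) and 1.77 (1.42 to 2.12), and the first was -0.086 when the Ngp limit was 1 instead of 2. Reads of such copies can be split between them. Chil3, a chitinase-like protein of immature neutrophils and macrophages, was equally concentrated, with 85.4 to 95.9% of its UMIs in 10 cells. It measured 423 in CT brain, 169.7 in INJ brain, 257 in CT dura and 627 in INJ dura, with ratios of -1.32 (-1.55 to -1.09) in brain and 1.29 (1.08 to 1.5001) in dura, and of -0.90 and 0.62 without mixed cells. The brain ratio of Chil3 was 0.35 in cells thinned to 1000 UMIs and 0.46 as a mean over cells, so its direction changed with the weight given to deep cells.

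Among chemokine genes, Cxcl2 and Cxcl3 were 2-fold higher in brain after PTI, and Ccl3 and Ccl4 2-fold lower in dura. Cxcl2, a ligand of Cxcr2 that draws further neutrophils (chr5:90903871-90905938, plus strand), measured 2329 in CT brain, 4877 in INJ brain, 2281 in CT dura and 1198 in INJ dura. It was highest in INJ brain and lowest in INJ dura, with the controls between and close together. Its log2 ratio of INJ over CT was 1.07 (1.01 to 1.13) in brain and -0.93 (-1.04 to -0.82) in dura, and 1.21 and -0.73 without mixed cells. In brain it was under 2-fold (0.75) when at least 4 of the 6 markers were asked for. Thinned cells had a UMI in 62.9%, 72.6%, 59.8% and 40.2%, unthinned members in 80.2%, 90%, 81.2% and 70.6% and thinned T and B cells in 2.84 to 8.52%. Cxcl3, its neighbour on the chromosome (chr5:90786103-90789600, plus strand), measured 49.9 in CT brain, 172 in INJ brain, 34.4 in CT dura and 2.47 in INJ dura, and the INJ dura value is 2 UMIs. Its ratio was 1.79 (1.39 to 2.19) in brain and -3.80 (-6.90 to -1.86) in dura, and 1.82 and -3.09 without mixed cells.

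Tnf, the cytokine tumour necrosis factor (chr17:35199381-35202007, minus strand), measured 78.3 in CT brain, 292 in INJ brain, 56.8 in CT dura and 45.7 in INJ dura. INJ brain was above the other 3 libraries, which were close to each other. The log2 ratio was 1.90 (1.59 to 2.22) in brain and -0.32 (-0.94 to 0.29) in dura, and 2.54 and -0.42 without mixed cells. Thinned cells held it in 6.603%, 19.1%, 5.07% and 4.803% and unthinned members in 24.8%, 43.8%, 20.7% and 23.5%, while thinned T and B cells, some of which make Tnf, held it in 5.87%, 7.73%, 4.07% and 6.86%. In INJ brain 10 cells held 62.0% of Tnf UMIs.

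Ccl3 and Ccl4, chemokines that draw monocytes and other leukocytes, differed in dura. Ccl3 measured 317 in CT brain, 280.1 in INJ brain, 358 in CT dura and 38.3 in INJ dura, and Ccl4 567, 399, 516 and 83.9 in the same order. INJ dura was the lowest library for both. The log2 ratio in dura was -3.23 (-3.80 to -2.70) for Ccl3 and -2.62 (-3.003 to -2.26) for Ccl4, and in brain -0.18 (-0.39 to 0.025) and -0.51 (-0.67 to -0.35). Without mixed cells the dura ratios were -2.42 and -1.95. In CT dura 10 cells held 95.2% of Ccl3 UMIs and 89.8% of Ccl4 UMIs, so the difference in dura rested on few cells, and thinned shares of cells with a Ccl3 UMI were 13.5%, 13.4%, 4.27% and 3.198%, with 37.6%, 40%, 13.6% and 10.8% unthinned and 7.05%, 9.25%, 2.34% and 4.68% in thinned T and B cells. Of 10 listed chemokine ligands, 5 were higher and 1 lower in brain among 9 measured, with a median of 1.03, but without mixed cells 2 higher and 1 lower among 7, with a median of -0.14. The shares over all genes in brain were 4.75% higher and 3.51% lower, and 1.55% and 3.15% without mixed cells. In dura they were 1.28% and 3.07%. Of the listed ligands in dura, 0 were higher and 2 lower among 6, with a median of -0.64. The gene lower in brain was Ccl5, a chemokine that T and natural killer cells make in quantity. It measured 138 in CT brain, 4.12 in INJ brain, 7.75 in CT dura and 8.64 in INJ dura, with a brain ratio of -5.07 (-6.70 to -3.82) and -5.12 without mixed cells. In CT brain 24 of 258 members had a Ccl5 UMI, 10 of them held 92.96% of the UMIs, and the share of thinned members with one, at 2.92%, 0.452%, 0.584% and 1.05%, was below that of thinned T and B cells, at 17.1%, 28.7%, 5.01% and 11.1%. CT brain was the only library with more than 9 Ccl5 UMIs, and its ratio over CT dura was 4.15 (3.20 to 5.30).

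Il1b, interleukin-1 beta, was among the most abundant RNAs of these cells, at 6543 in CT brain, 7040.1 in INJ brain, 6097 in CT dura and 5838 in INJ dura. Its log2 ratio was 0.11 (0.063 to 0.15) in brain and -0.063 (-0.12 to -0.0094) in dura, so the conditions lay close together in each tissue. Thinned cells held it in 96.8%, 95.6%, 92.9% and 96.4% and unthinned members in 99.61%, 98.8%, 97.2% and 100%, against 3.87 to 11.97% of thinned T and B cells. Il1rn, the antagonist of the interleukin-1 receptor, measured 236 in CT brain, 125 in INJ brain, 321 in CT dura and 133 in INJ dura, with ratios of -0.92 (-1.20 to -0.64) and -1.27 (-1.59 to -0.96). Of 12 genes of the interleukin-1 system and inflammasome, 9 were measured in brain and 8 in dura, with medians of -0.13 and -0.11. In brain 1 (Pycard) was 2-fold higher over all members and 0 of 9 without mixed cells, and in dura 1 (Il1rn) was lower. Over all genes 4.75% were higher and 3.51% lower in brain, and 1.28% and 3.07% in dura. Without mixed cells the brain shares were 1.55% and 3.15%. Osm, oncostatin M, measured 509 in CT brain, 326 in INJ brain, 592 in CT dura and 374 in INJ dura, with ratios of -0.64 (-0.82 to -0.46) and -0.66 (-0.86 to -0.47), the first being -1.01 without mixed cells. The list of other cytokines and growth factors, to which Tnf, Osm, Prok2 and Thbs1 belong, had medians of -0.15 over 6 genes in brain and -0.39 over 5 in dura. Over all members Tnf and Vegfa of that list were 2-fold higher in brain, and in dura Prok2 was higher and Thbs1 lower. Without mixed cells Tnf was higher and Osm and Thbs1 lower in brain among 5, with a median of -0.66. The shares over all genes are those given above beside the interleukin-1 list.

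**Figure D5:**
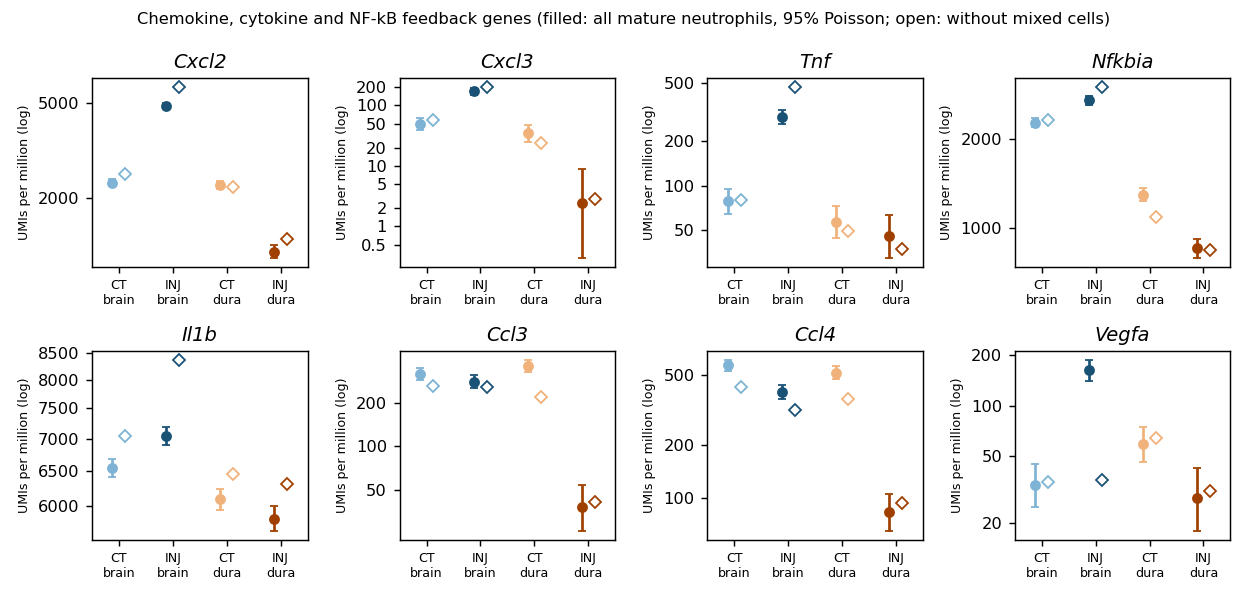
CPM (y axis, log scale) of chemokine and cytokine genes in each library, over all members (filled) and without mixed cells (open), with 95% Poisson intervals on the filled points. Cxcl2 was at 4877 in INJ brain and 1198 in INJ dura, with CT brain and CT dura at 2329 and 2281, and Il1b was between 5838 and 7040.1 in all 4.

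Of genes that restrain NF-kB or keep the cell alive, Ier3 and Bcl2a1b were 2-fold higher in brain and Bcl2a1b was lower in dura. The list had medians of -0.14 and -0.31 over 14 and 11 of 14 genes. Over all genes 4.75% were higher in brain and 3.07% lower in dura, and 1.55% and 2.92% without mixed cells. Nfkbia, the inhibitor of NF-kB that NF-kB itself induces (chr12:55489410-55492647, minus strand), measured 2274 in CT brain, 2711 in INJ brain, 1300.2 in CT dura and 857 in INJ dura, with ratios of 0.25 (0.18 to 0.32) in brain and -0.60 (-0.73 to -0.47) in dura. Ier3, an early response gene that protects from cell death, measured 267 in CT brain, 1056 in INJ brain, 466 in CT dura and 405 in INJ dura, with ratios of 1.98 (1.82 to 2.15) and -0.20 (-0.40 to -0.0020), and 1.38 and 0.018 without mixed cells. Mcl1, on which neutrophil survival depends, measured 2113 in CT brain, 1895 in INJ brain, 2173 in CT dura and 2338 in INJ dura, with ratios of -0.16 (-0.24 to -0.078) and 0.11 (0.019 to 0.19), the first being 0.045 without mixed cells. Bcl2a1b, 1 of several near-identical survival genes between which reads can be split, had ratios of 1.02 (0.75 to 1.30) and -1.39 (-1.92 to -0.88), the first being 0.37 without mixed cells.

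The promoters of Cxcl2 (chr5:90903649-90903898 on the plus strand), Cxcl3 (chr5:90785851-90786100 on the plus strand) and Nfkbia (chr12:55492648-55492897 on the minus strand) are shown because these genes stood higher in INJ brain than in INJ dura and each held the NF-kB consensus in the same 250 bases, in capitals.

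Cxcl2: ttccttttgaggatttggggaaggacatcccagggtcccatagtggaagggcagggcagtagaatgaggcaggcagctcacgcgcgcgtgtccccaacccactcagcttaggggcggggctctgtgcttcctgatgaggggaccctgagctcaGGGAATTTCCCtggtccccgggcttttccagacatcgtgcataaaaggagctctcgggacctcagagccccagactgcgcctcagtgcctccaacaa

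Cxcl3: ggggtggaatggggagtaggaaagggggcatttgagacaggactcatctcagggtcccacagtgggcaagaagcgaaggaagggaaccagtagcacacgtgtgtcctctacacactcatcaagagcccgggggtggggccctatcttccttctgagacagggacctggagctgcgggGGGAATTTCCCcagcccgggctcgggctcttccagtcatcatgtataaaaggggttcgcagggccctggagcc

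Nfkbia: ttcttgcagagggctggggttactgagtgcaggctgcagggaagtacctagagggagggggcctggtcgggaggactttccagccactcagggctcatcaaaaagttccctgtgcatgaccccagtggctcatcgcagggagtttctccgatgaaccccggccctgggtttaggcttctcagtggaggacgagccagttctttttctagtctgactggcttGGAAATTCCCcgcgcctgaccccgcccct

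The match lay 97 to 87 bases before the start in Cxcl2 and 73 to 63 in Cxcl3, where overlapping matches on both strands make up the run, and 29 to 20 in Nfkbia. The last bases of the Cxcl2 window overlap the gene as placed by GENCODE. Ier3 also held the consensus, and the windows of Tnf and Ccl3 did not.

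Of 14 listed glycolysis genes, 6 of 14 measured were 2-fold higher in brain (Pfkl, Aldoa, Tpi1, Gapdh, Pgk1 and Ldha) with a median of 0.81, and 0 of 12 in dura with a median of 0.61. Without mixed cells, 2 of 12 and 1 of 11 were 2-fold higher, with medians of 0.61 and 0.54. Over all genes 4.75% were 2-fold higher in brain and 1.28% in dura, and 1.55% and 1.58% without mixed cells. This list and the others were chosen with earlier results of these data known. Aldoa, aldolase, measured 432 in CT brain, 985 in INJ brain, 446 in CT dura and 729 in INJ dura, with ratios of 1.19 (1.05 to 1.33) and 0.71 (0.54 to 0.88). Gapdh measured 1036 in CT brain, 2307 in INJ brain, 919.6 in CT dura and 1683 in INJ dura, with ratios of 1.16 (1.06 to 1.25) and 0.87 (0.76 to 0.99), the first being 0.996 without mixed cells. T and B cells, thinned alike, held Gapdh in 42.996%, 55.9%, 42.1% and 47.2% and members in 59.6%, 80.4%, 56.9% and 76.1%, or 93.02%, 98.1%, 92.02% and 97.1% unthinned. The part of free RNA in these values was not tested.

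Of 12 listed genes induced by low oxygen, 5 of 8 measured were 2-fold higher and 1 lower in brain, with a median of 1.81, and without mixed cells 3 of 6 were higher and 1 lower, with a median of 1.25. The shares over all genes in brain were 4.75% higher and 3.51% lower, and 1.55% and 3.15% without mixed cells. In dura 3 listed genes could be measured, of which 0 were 2-fold apart, with a median of 0.57. The injury ratios of the tissues were not compared on this list, since most of its genes had too few UMIs in dura. Ero1l, which oxidises the enzyme that forms disulfide bonds, measured 25.6 in CT brain, 102 in INJ brain, 18.9 in CT dura and 40.7 in INJ dura, with a brain ratio of 1.99 (1.45 to 2.57) and 2.03 without mixed cells. Hilpda, a lipid droplet protein, measured 14.6 in CT brain, 314 in INJ brain, 21.5 in CT dura and 16.04 in INJ dura, with brain ratios of 4.43 (3.80 to 5.14) and 3.82. T and B cells of INJ brain held Hilpda in 8.43% and Ero1l in 4.63%, thinned, beside 8.44% and 7.11% of members without mixed cells, or 22.5% and 30% of unthinned members, and the thinned shares of Hilpda in members and in T and B cells lay close together. Ndrg1, a gene that hypoxia usually raises, was lower in INJ brain, with levels of 77.6 in CT brain, 34.6 in INJ brain, 78.4 in CT dura and 96.3 in INJ dura and a brain ratio of -1.17 (-1.71 to -0.64).

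Vegfa, the vascular growth factor the study is about, was low in mature neutrophils, at 33.95 in CT brain, 162 in INJ brain, 59.4 in CT dura and 28.4 in INJ dura over all members and 35.3, 36.3, 64.7 and 31.3 without mixed cells. The brain ratio of 2.26 (1.80 to 2.74) was 0.041 (-0.74 to 0.79) without mixed cells, which held 87.8% of the Vegfa UMIs of INJ brain. In dura the ratio was -1.07 (-1.81 to -0.37) and -1.05. Without mixed cells CT dura was the highest of the libraries, and the other 3 lay close together.

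Spp1, Ctsb, Plin2, Cd63 and other genes of neutrophils that have stayed in tissue, which macrophages also make, had a median of 1.25 in brain over 14 of 15 genes, 8 of them 2-fold higher. Without mixed cells the median was 0.41 and 2 were 2-fold higher, Spp1 and Ctsb. Among all genes 4.75% were 2-fold higher in brain, and 1.55% without mixed cells. Spp1, osteopontin, measured 23.6 in CT brain, 1900.2 in INJ brain, 24.97 in CT dura and 71.6 in INJ dura over all members and 26.5, 192, 27.3 and 82.6 without mixed cells, and 10 cells held 94.3% of the UMIs of INJ brain. Thinned T and B cells of INJ brain had a Spp1 UMI in 13.04%, beside 15.1% of thinned members, or 50.6% unthinned. Ctsb, the lysosomal protease cathepsin B, measured 477 in CT brain, 2367 in INJ brain, 204 in CT dura and 262 in INJ dura, with a brain ratio of 2.31 (2.19 to 2.43) that was 1.02 without mixed cells. Plin2, which coats lipid droplets, measured 209.9 in CT brain, 676 in INJ brain, 128 in CT dura and 146 in INJ dura, with a brain ratio of 1.69 (1.496 to 1.88) and 0.68. In dura the list had a median of 0.017, with 0 of 11 measured genes 2-fold apart, and most of all genes were within 2-fold there.

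All 6 phagocyte oxidase genes were within 2-fold in both tissues, with medians of -0.19 and -0.15, among them Ncf1, at 449.7 in CT brain, 378 in INJ brain, 597 in CT dura and 348 in INJ dura. Most of all genes were within 2-fold as well. Of 9 chemoattractant receptors, 8 were measured in each tissue. In brain 0 were 2-fold apart, and in dura 1 was lower, beside 3.07% of all genes. This was Ccrl2, a chemerin-binding receptor, at 366 in CT and 135 in INJ. Its ratio was -1.44 (-1.76 to -1.14), and -0.64 when Siglecf-positive cells were let in. Fpr1, a receptor for formyl peptides of bacteria and mitochondria, measured 176 in CT brain, 176 in INJ brain, 253 in CT dura and 279 in INJ dura. Cxcr4, which draws aged neutrophils back to the marrow, measured 737 in CT brain, 373 in INJ brain, 399 in CT dura and 322 in INJ dura, with ratios of -0.98 (-1.14 to -0.82) and -0.31 (-0.53 to -0.086), under 2-fold in both tissues. Among the adhesion genes reported, Itgal, an integrin subunit, was 2-fold lower in brain over all members and not without mixed cells, when Icam1, a ligand of integrins, was higher instead, at 1.12. The adhesion list had 9 measured genes in brain. Over all genes 3.51% were lower there over all members, and 1.55% higher without mixed cells.

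Of 12 pattern and Fc receptors measured in brain, Fcgr2b and Cd14 were 2-fold higher over all members, and 0 of 11 without mixed cells. Over all genes 4.75% were higher in brain, and 1.55% without mixed cells. The list had medians of 0.19 in brain and 0.23 in dura. Cd14, the coreceptor for lipopolysaccharide, measured 532 in CT brain, 1338 in INJ brain, 629 in CT dura and 905 in INJ dura, with a brain ratio of 1.33 (1.21 to 1.46) that was 0.97 without mixed cells. Of 9 transcription factors measured in brain, Cebpa alone was 2-fold higher over all members, and 0 of 8 without mixed cells, beside the same shares over all genes. That list had medians of -0.38 and 0.021, with Cebpb, which drives emergency granulopoiesis, at 5807 in CT brain, 4132 in INJ brain, 4980.5 in CT dura and 4468 in INJ dura. MHC class I genes had medians of -0.15 and -0.29, and 0 of 9 measured were 2-fold apart in either tissue. Heat shock genes had medians of -0.029 and -0.42, and 0 of 9 were 2-fold apart in brain and 0 of 6 in dura. Over all genes 4.75% were higher and 3.51% lower in brain, and 1.28% and 3.07% in dura. A count of 0 in lists this short lies near those shares.

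The naming rule also gave genes outside the lists. In brain Fbxo31, H2-Q10, Per1, Hlx, Sh2d3c, Lst1 and Jdp2 were lower in INJ, with ratios of -1.84, -1.75, -1.52, -1.44, -1.40, -1.34 and -1.34. Per1 is a clock gene and Jdp2 a repressor of AP-1. In dura Man1b1, Cwc25, St3gal5 and Ninj1 were lower, with ratios of -1.36, -1.34, -1.31 and -1.14.

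The second question was how mature neutrophils of brain differed from those of dura. In both conditions Gngt2, Csf1, Hspa1a and Hspa1b were higher in brain and Vps37b and Cwc25 lower. After PTI the chemokine genes Cxcl2, Cxcl3 and Ccl3 and Tnf were higher in brain as well. In CT, 70 (2.26%) of 3094 genes were higher and 48 (1.55%) lower in brain, and without mixed cells 73 (2.75%) and 44 (1.66%) of 2651. In INJ, 278 (11.5%) of 2415 genes were higher and 71 (2.94%) lower in brain, and without mixed cells 58 (3.5%) and 26 (1.57%) of 1659. Centred on the median of all genes the counts were 58 and 58 in CT and 246 and 93 in INJ, and with S100a8 and S100a9 left out of the total they were 53 and 59 in CT and 213 and 128 in INJ. In CT the split thus depended on the scale, and S100a8 and S100a9 took a larger part of the RNA in dura, as given above.

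In CT the genes higher in brain included Gngt2, a G protein subunit, Treml4, a receptor of the Trem family, Metrnl, a secreted protein, and Ear2, a ribonuclease. Gngt2 measured 363 in CT brain, 456 in INJ brain, 87.8 in CT dura and 106 in INJ dura, with a log2 ratio of brain over dura of 2.05 (1.74 to 2.37) in CT and 2.10 (1.77 to 2.45) in INJ. Treml4 measured 140.0 in CT brain, 92.3 in INJ brain, 35.3 in CT dura and 35.8 in INJ dura, with 1.99 (1.497 to 2.51) and 1.37 (0.77 to 2.01), the latter being 2.36 without mixed cells. Metrnl measured 218 in CT brain, 179.6 in INJ brain, 62.9 in CT dura and 70.3 in INJ dura, with 1.80 (1.42 to 2.18) and 1.35 (0.93 to 1.80). Ear2 measured 124 in CT brain, 75.8 in INJ brain, 42.2 in CT dura and 20.98 in INJ dura, with 1.56 (1.09 to 2.04) and 1.85 (1.10 to 2.69), the latter being 2.74 without mixed cells. Clec4a3, a lectin receptor of myeloid cells, measured 129.6 in CT brain, 123 in INJ brain, 43.1 in CT dura and 81.5 in INJ dura, with 1.59 (1.13 to 2.07) and 0.59 (0.16 to 1.03), and 1.004 without mixed cells for the latter. Patrolling monocytes also make Treml4 and Ear2, and the monocyte list summed to 1112, 918, 666 and 844 CPM without mixed cells. In 10 cells of CT brain lay 42.7% of Gngt2 UMIs, 48.5% of Treml4 UMIs and 65.9% of Ear2 UMIs. The part of monocyte RNA in these ratios was not tested. Csf1, the growth factor of macrophages, measured 94.9 in CT brain, 94.7 in INJ brain, 23.2 in CT dura and 11.1 in INJ dura, with 2.03 (1.43 to 2.68) and 3.09 (2.12 to 4.26), and thinned members held it in 12.1%, 11.4%, 2.42% and 2.07%, unthinned members in 27.9%, 24.4%, 10.8% and 6.86% and thinned T and B cells in 0.134 to 0.568%. Both brain libraries lay above both dura libraries for Csf1.

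Of the heat shock genes, 2 of 9 measured were 2-fold higher in brain than in dura in CT and 5 of 8 in INJ. The medians were 0.46 and 1.34, and without mixed cells 3 of 8 and 4 of 7 were higher. Over all genes 2.26% were higher in brain in CT and 11.5% in INJ, and 2.75% and 3.5% without mixed cells. Hspa1a, the inducible chaperone Hsp70, measured 407 in CT brain, 350.1 in INJ brain, 48.2 in CT dura and 34.6 in INJ dura, with a brain over dura ratio of 3.08 (2.68 to 3.501) in CT and 3.34 (2.79 to 3.95) in INJ. T and B cells thinned alike held Hspa1a in 42.7%, 30.4%, 9.32% and 3.62%, a larger share than members, at 10.8%, 5.64%, 2.83% and 1.66% thinned and 36.05%, 21.2%, 10.3% and 7.84% unthinned, and with the same order of tissues. Hspa1b, its near-identical copy, gave 3.76 (3.23 to 4.35) and 3.32 (2.56 to 4.18). Without mixed cells the INJ ratios were 4.02 for Hspa1a and 5.03 for Hspa1b. Klf2, a factor that holds leukocytes at rest, measured 1297 in CT brain, 955 in INJ brain, 530.4 in CT dura and 608 in INJ dura, with 1.29 (1.16 to 1.42) in CT and 0.65 (0.50 to 0.81) in INJ, and was likewise in 60.6%, 47.3%, 29.6% and 24.4% of thinned T and B cells. The part that a difference shared by all cells of a library had in these ratios was not tested.

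Lower in brain were Vps37b, with ratios of -2.44 (-2.63 to -2.25) in CT and -2.70 (-3.05 to -2.36) in INJ, and Cwc25, a splicing factor, with -2.30 (-2.57 to -2.03) and -1.65 (-2.07 to -1.24). Ankrd13c, Man1b1 and Adpgk had ratios of -1.74, -1.74 and -1.53 in CT. Egr1, an immediate early factor, measured 99.1 in CT brain, 143 in INJ brain, 340.1 in CT dura and 281 in INJ dura, with -1.78 (-2.07 to -1.4998) in CT and -0.97 (-1.27 to -0.68) in INJ. Cd177 was lower in brain in both conditions, with -1.35 (-1.74 to -0.98) and -1.48 (-1.82 to -1.15), the latter being -0.96 without mixed cells. The median over measured secondary granule genes was -0.41 in CT and -0.53 in INJ, beside 0.06 and 0.07 for all genes. More of the dura members lay near the Ngp limit, as given above.

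Between the INJ libraries, several lists held genes 2-fold higher in brain. Among all genes 11.5% were higher and 2.94% lower in brain, and 3.5% and 1.57% without mixed cells. Cxcl3 had a brain over dura ratio of 6.12 (4.25 to 9.18), Ccl3 of 2.87 (2.34 to 3.45), Tnf of 2.68 (2.19 to 3.21), Cxcl2 of 2.02 (1.93 to 2.12) and Nfkbia of 1.66 (1.54 to 1.78). Without mixed cells these were 6.14, 2.63, 3.66, 2.11 and 1.83. In CT the same genes had ratios of 0.53, -0.17, 0.46, 0.030 and 0.81, all under 2-fold over all members, while without mixed cells Cxcl3 was at 1.23, Ccl3 at 0.23 and Nfkbia at 1.09. Of the chemokine ligands, 6 of 8 were 2-fold higher in INJ brain than in INJ dura, with a median of 2.14, and 4 of 6 without mixed cells, with a median of 1.94. Trem1, which amplifies inflammatory signals, was lower in INJ brain, with levels of 636 in CT brain, 418 in INJ brain, 1163 in CT dura and 1113 in INJ dura and a ratio of -1.41 (-1.57 to -1.26) that was -0.99 without mixed cells. Of the other cytokines and growth factors, 3 (Tnf, Vegfa and Csf1) were higher and 1 (Prok2) lower among 7, and without mixed cells 1 (Tnf) higher and 1 (Thbs1) lower among 5, with a median of -0.43. Of genes of neutrophils that have stayed in tissue, 8 of 12 were higher in INJ brain, with a median of 1.74, and 3 (Ctsb, Spp1 and Plin2) without mixed cells, with a median of 0.61. The brain over dura ratio in INJ was 3.18 (2.98 to 3.39) for Ctsb and 4.73 (4.35 to 5.13) for Spp1, and 1.75 and 1.22 without mixed cells. For Vegfa it was 2.52 (1.89 to 3.21), and 0.21 without mixed cells. Of the hypoxia-induced genes, 6 of 8 were higher and 1 lower, and without mixed cells 3 of 4 were higher. The 4 measured stefins were all lower in INJ brain, with a median of -2.34, and of -1.59 without mixed cells. With an Ngp limit of 1 the sign of Stfa1 turned. Most stefin UMIs lay in few cells, and more of the dura members lay near the Ngp limit, as given above.

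The less mature Ngp-high cells of the same libraries gave values of their own. Over those cells, the log2 ratio of INJ over CT in brain and dura was 2.79 and 3.73 for Wfdc17, 1.27 and 3.24 for Ifitm1, 1.24 and 2.33 for Upp1, 0.96 and 0.995 for Lrg1 and 0.38 and 0.24 for Lcn2. Thbs1 gave -1.80 and -1.73, and Ptgs2 -1.75 and -1.61. Wfdc17, Ifitm1, Thbs1 and Ptgs2 thus had the same sign in Ngp-high as in mature cells in both tissues. Cxcl2 and Tnf, which were higher in mature neutrophils of INJ brain, had ratios of -1.45 and 0.047 in Ngp-high cells of brain. The Ngp-high cells were deeper, with medians of 9840, 13738, 9345.5 and 17606 UMIs, and whether the ratios differ between the stages was not tested.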

How the data were processed

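CD45+ cells of brain and dura were sequenced with the 10× Chromium 3′ v3 kit, 1 library per group. Per the labels the authors used Cell Ranger 3.1.0, mm10 and Seurat 3.1.0. The values they deposited are natural logs, taken of 1 plus a gene's UMIs scaled to 10000 per cell. UMIs were recovered as whole numbers within 1e-06, taking the smallest value of a cell as 1 UMI. The study excluded doublets at the sort and used Scrublet, and whether doublets were removed before deposit is not given in the sources used here. Scrublet (scanpy 1.11.5) at its automatic threshold marked under 0.5% of each library and so did not separate doublets. Removing the highest scores, at 0.8% per 1000 barcodes, was an alternative.

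The members and the 20 gene lists (and 13 lists of other lineages) were chosen with earlier results of these data known. UMIs of members were summed per library and given per 1000000 (CPM). Log2 ratios have exact 95% intervals for counting error, and a gene at 0 UMIs was set to 3 UMIs. Named are listed genes, and up to 10 genes per direction and injury comparison (5 per tissue comparison) with the largest ratio among those with at least 200 UMIs, 2-fold or more apart and at least 2 times as many UMIs per cell as in T and B cells of the library. Genes of the selection rule and markers of other lineages were left out of the choice by ratio. Vegfa was added since the study is about it. Shares of cells at 1000 UMIs are the expected share over draws without replacement. Of the T and B cells, 3 were shallower and left out, and of the members 0. Alternatives were the gene minimum, the Ngp, marker and Siglecf limits, the UMI minimum, the fold, scaling, thinning and a mean over cells. Leaving out mixed cells (1% or 0.5% of other lineages) was added after the data were seen. Positions are from GENCODE on GRCm38 and promoters from RefSeq GRCm38.p6. Python 3.11.15, numpy 2.4.6, scipy 1.17.1 and matplotlib 3.10.9 were used. Some listed genes are not reported here.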

Additional observations from a re-analysis of the deposited data

Results flagged for a closer look

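Some genes moved in opposite directions after PTI in the 2 tissues, by 2-fold or more in each. The difference between the tissues was not tested, since each value is 1 library against 1. Over all members, the MHC class II genes H2-Aa (log2 ratio of INJ over CT of 1.73 in brain and -1.56 in dura), H2-Ab1 (1.59 and -1.73), H2-Eb1 (1.58 and -1.82), H2-DMa (1.85 and -1.59) and their chaperone Cd74 (1.71 and -1.48) were higher in brain and lower in dura. Mixed cells held 97.8% of Cd74 UMIs in INJ brain and 90.7% in CT dura, and without them Cd74 had ratios of -0.56 and -0.41. Several MHC class II genes are among the markers that define mixed cells, so these values follow in part from that definition. Bcl2a1b (1.02 and -1.39) and the metallothionein Mt1 (3.29 and -1.01) went the same way. Without mixed cells Bcl2a1b had ratios of 0.37 and -1.52, and Mt1 of 2.43 and -0.43. Chil3 was lower in brain (-1.32) and higher in dura (1.29), with nearly all of its UMIs in 10 cells. Without mixed cells, Ahnak, a large scaffold protein, was lower in brain (-2.01) and higher in dura (1.04), while over all members its ratios were -0.14 and 0.55.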

How the results depend on the processing

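With 1 library per group the spread between mice is unknown, depth was low (medians of 3804.5, 4623, 4554 and 6704.5 UMIs per member in CT brain, INJ brain, CT dura and INJ dura), and a gene under 100 UMIs in both groups together was not counted. No paired analysis was possible because each group has 1 library and no test was made. The ratio of the share of mature neutrophils in INJ over CT stayed below 1 under every alternative, from 0.423 to 0.562 in brain and from 0.638 to 0.730 in dura. Of the named genes that were 2-fold or more apart, 65 of 73 in brain and 44 of 46 in dura after PTI, and 24 of 24 in CT and 61 of 65 in INJ between tissues, kept their sign under every alternative, and 37, 22, 19 and 29 of them stayed 2-fold apart.

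The counts of genes 2-fold or more apart moved by over 1.5 times as follows, and their cause was not tested unless the setting itself gives it. The number of genes tested moved with the setting and is given with each. With a minimum of 20 UMIs, 569 genes were higher and 431 lower of 7079 for INJ over CT in brain. For INJ over CT in dura they were 128 and 505 of 5958. For brain over dura they were 387 and 248 of 6874 in CT and 1144 and 235 of 6252 in INJ. In the same order they were 46 and 18 of 739, 12 and 12 of 549, 11 and 9 of 744, and 87 and 12 of 565 with a minimum of 500 UMIs. Cells thinned to 1000 UMIs gave 19 and 18 of 610, 9 and 9 of 450, 11 and 7 of 677, and 26 and 8 of 354, since fewer genes reach 100 UMIs. With a fold of 3 the genes tested were those of the main setting, 3158, 2349, 3094 and 2415 in that order. Then 75 and 11 genes remained past it in brain, 12 and 7 in dura, 22 and 24 between tissues in CT and 108 and 15 in INJ. Centring, with the same genes tested, gave 65 lower in brain and 47 higher and 40 lower in dura. Leaving S100a8 and S100a9 out of the total gave 128 of 2415 genes lower in INJ brain than in INJ dura. An Ngp limit of 1 gave 18 of 1552 genes higher in INJ dura than in CT dura. No limit on Siglecf gave 117 of 2564 genes lower in INJ dura than in CT dura. Removal of the highest Scrublet scores gave 114 of 2838 genes higher in CT brain than in CT dura. Without cells with 1% of other lineages, 36 genes were higher and 73 lower of 2318 in INJ brain than in CT brain. Between INJ brain and INJ dura they were 58 and 26 of 1659. Without those with 0.5% they were 43 and 70 of 1807, and 29 and 19 of 1361.

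Directions turned mainly when mixed cells were left out. Without cells with 1% of other lineages, the log2 ratio of INJ over CT in brain became -1.57 for Ccl2, -0.14 for Ccl9, -0.039 for Cd63, -0.91 for Cebpa, -0.92 for H2-DMa, -0.065 for Pycard and -0.14 for the median of the chemokine ligands, and brain over dura in INJ became -0.13 for Ccl9 and -0.43 for H2-DMa. Without those with 0.5%, the brain ratio was -0.13 for Cd63, -0.44 for Cebpa, -0.44 for H2-DMa, -0.0010 for Vegfa, 2.18 for Chil3 and -0.11 for the chemokine ligands, brain over dura in INJ was -0.80 for Ccl9, -0.70 for H2-DMa and 2.11 for Chil3, and the dura ratio of H2-DMa was 2.43. Chil3 in brain was 0.35 in thinned cells and 0.46 as a mean over cells. H2-DMa in dura was 0.032 after removal of the highest Scrublet scores. With Ngp below 1, Stfa1 was 1.21 for brain over dura in INJ and -0.086 for INJ over CT in dura.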
